A study of Mus musculus with 6 samples.

Results

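Annexins are calcium-dependent proteins that bind acidic phospholipids at the inner face of membranes, and they take part in membrane repair, endocytosis and the organisation of membrane and cytoskeleton. S100 proteins are small calcium sensors with a pair of EF-hand motifs, and several work as dimers docked on the tail of an annexin. In the nervous system S100b is known as a glial protein, widely used as an astrocyte marker and also present in cells of the oligodendrocyte lineage. Here 8 annexin genes and 2 S100 genes are described, taken by symbol from a table of 26264 genes: Anxa1, Anxa2, Anxa3, Anxa4, Anxa5, Anxa6, Anxa7, Anxa11, S100b and S100a6. All 10 were in the table.

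The table gives raw RNA-seq read counts of 6 bulk libraries from cultured mouse spinal cord cells that the labels call neural stem cells. Cells were grown with EGF and FGF2 on a C57BL6J background and sorted by the fluorescence of a PDGFRaGFP reporter, green fluorescent protein driven by the gene of the platelet-derived growth factor receptor alpha that marks oligodendrocyte precursors. The GFP-positive group holds 3 libraries with the genotype label PDGFRaGFP/+, and the GFP-negative group holds 3 libraries with the genotype label PDGFRaGFP/-. The design text asks how such cultures give rise to precursors and oligodendrocytes. Animal age is not stated in the labels, and neither is the number of animals or cultures behind a library. Each library number (314, 315 and 316, here replicates 1, 2 and 3) occurs once in each group.

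Total counts lay between 36846570 and 45207335 in the GFP-positive libraries and between 31067850 and 32869705 in the GFP-negative libraries. Levels are given in CPM, read counts relative to the TMM-adjusted size of each library. Pdgfra, the gene behind the sort, stood at 237, 204 and 245 CPM in GFP-positive cells, against 8.03, 19.3 and 13.9 CPM in GFP-negative cells. The summed level of 10 precursor markers was 4820 to 5040 CPM in GFP-positive libraries and 2320 to 2640 CPM in GFP-negative libraries. All 10 were called higher, with log2 fold changes from 0.50 for Olig1, the most abundant, to 4.13 for C1ql1. Oligodendrocyte markers summed to 211 to 231 CPM in GFP-positive and 127 to 178 CPM in GFP-negative libraries. For Schwann cell markers the sums overlapped, at 25.9 to 36.4 CPM (GFP-positive) and 30.2 to 39.4 CPM (GFP-negative). Most of each sum was Egr2, which was not called (log2 fold change 0.26, edgeR adjusted p = 0.328). The sum therefore says little about the other Schwann cell markers. Of the 3 tested, Cdh19 was called lower in GFP-positive cells (log2 fold change -3.08, edgeR adjusted p = 8.31e-05). Prx was not called (log2 fold change -0.36, edgeR adjusted p = 0.0722). The summed level of 11 astrocyte markers was 506 to 629 CPM in GFP-positive libraries and 3750 to 4650 CPM in GFP-negative libraries, and each of the 10 tested markers of that list was called lower in GFP-positive cells. The tested astrocyte markers thus had the same direction as every annexin and S100 gene called here, though not as S100a16 and S100a3, which were not called. Other marker lists also held genes called lower. The part of the astrocyte markers in the annexin and S100 differences was not tested. In bulk libraries, fewer cells of a type and less RNA per cell cannot be told apart.

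Of the 10 genes, 8 were called lower in GFP-positive cells and 0 higher (edgeR quasi-likelihood test, adjusted p below 0.05), S100a6 was tested and not called, and Anxa1 did not pass the count filter. Over the whole table, 29.2% of 14554 tested genes were called lower and 26.1% higher. Log2 fold changes, GFP-positive over GFP-negative, ran from -3.87 for Anxa3 to -0.76 for S100a6, beside a median of -0.01 over all tested genes. The filter asks for 0.287 CPM, which is 10 counts in a library of median depth, in at least 3 libraries. Anxa3, Anxa4 and Anxa11 reached that level in 3 GFP-negative libraries and 1 GFP-positive library. They entered the test through the group in which they were high, so their calls add no weight to the count.

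**Figure D1:**
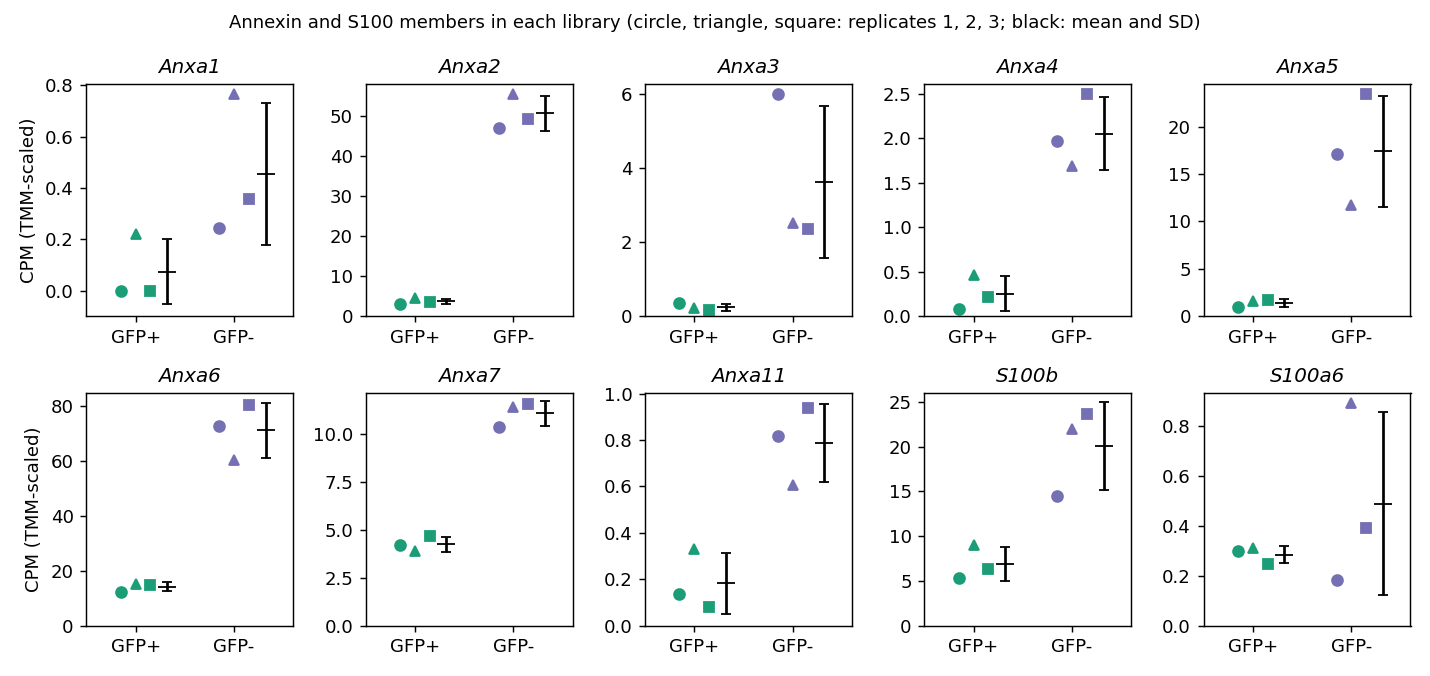
CPM of each annexin and S100 gene in the 3 GFP-positive and 3 GFP-negative libraries, one panel per gene with its own linear axis; symbols mark replicates 1, 2 and 3, and the black bar gives mean and SD. The groups overlap for S100a6, where the GFP-negative library of replicate 1 lies below all GFP-positive libraries. For Anxa1 they are barely apart, at 0.221 CPM (10 counts) in GFP-positive replicate 2 and 0.243 CPM (8 counts) in GFP-negative replicate 1. How often groups are separate over the whole table was not counted.

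Anxa2 encodes the annexin that forms a heterotetramer with S100a10 at the plasma membrane and binds plasminogen activator and actin. Its level was 3.10, 4.50 and 3.48 CPM in GFP-positive cells, against 47.0, 55.4 and 49.3 CPM in GFP-negative cells. All libraries of each group lay close together, and the groups were far apart. The log2 fold change was -3.77 (SE 0.15, edgeR adjusted p = 1.93e-06), which is 13.6-fold lower in GFP-positive cells.

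Anxa5, the phosphatidylserine-binding annexin used as a reagent for apoptotic cells, had 0.953, 1.59 and 1.69 CPM in GFP-positive cells, against 17.1, 11.7 and 23.4 CPM in GFP-negative cells. The GFP-negative libraries differed among themselves, with replicate 2 lowest and replicate 3 highest, and every one of them was above every GFP-positive library. Its log2 fold change was -3.62 (SE 0.31, edgeR adjusted p = 3.93e-05).

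Anxa6 is the largest annexin, built from a doubled core, and is known to act in endocytosis and cholesterol transport. It was the most abundant of the 10 genes in CPM in both groups, at 12.2, 15.1 and 14.9 CPM in GFP-positive cells and 72.5, 60.4 and 80.4 CPM in GFP-negative cells. The groups did not overlap, and the log2 value of -2.33 (SE 0.13, edgeR adjusted p = 5.21e-06) equals a level 5.04-fold lower in GFP-positive cells. Its 95% interval of -2.63 to -2.04 lies wholly above that of Anxa2, -4.10 to -3.43.

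Anxa7, an annexin with a long glycine-, tyrosine- and proline-rich tail that promotes membrane fusion, differed least of the called annexins among the 10 genes. GFP-positive cells held 4.19, 3.88 and 4.68 CPM, against 10.4, 11.4 and 11.6 CPM in GFP-negative cells. Spread within each group was small beside the gap between them. The log2 fold change was -1.39 (SE 0.12, edgeR adjusted p = 5.12e-05), or 2.62-fold lower in GFP-positive cells.

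Anxa3, Anxa4 and Anxa11 were low in both groups. Anxa3, an annexin of myeloid cells that include microglia, had 13, 10 and 6 counts in the GFP-positive libraries, against 198, 79 and 73 counts in the GFP-negative ones, and its log2 fold change was -3.87 (SE 0.49, adjusted p = 0.000318 in edgeR). Its GFP-negative library of replicate 1 stood at 6.0 CPM, more than the 2.52 and 2.36 CPM of the others. Anxa4, an annexin of epithelial and secretory membranes, had 3, 21 and 8 counts in GFP-positive libraries, against 65, 53 and 77 counts in GFP-negative ones.

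The fold change of Anxa4 was -2.95 on the log2 scale (SE 0.49, edgeR adjusted p = 0.00122). Its GFP-positive library of replicate 2 was the highest of that group, and the value was -3.73 without it and -3.86 without both replicate 2 libraries (edgeR adjusted p = 0.000909 and 0.00025). Anxa11, which tethers RNA granules to lysosomes in neurons, had 5, 15 and 3 counts in GFP-positive libraries and 27, 19 and 29 counts in GFP-negative libraries.

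For Anxa11 the log2 fold change was -2.04 (SE 0.50, edgeR adjusted p = 0.00875), and its size and call varied with the libraries kept. Without both replicate 1 libraries the adjusted p was 0.0831, without both replicate 3 libraries it was 0.0853, and without both replicate 2 libraries the log2 fold change was -2.96. It was -2.80 without the GFP-positive library of replicate 2 alone.

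Anxa1, a target of glucocorticoids that signals through formyl peptide receptors, was nearly absent from the counts. It had 0, 10 and 0 counts in GFP-positive libraries, where a count of 0 allows up to 0.0817 CPM in replicate 1 and 0.0816 CPM in replicate 3. The GFP-negative libraries held 8, 24 and 11 counts. In both groups the highest count was that of replicate 2. A fit with no count filter gave a value of -2.44 on the log2 scale (SE 0.98, edgeR adjusted p = 0.0681), which missed the threshold. Without the GFP-positive library of replicate 2, the one with counts, Anxa1 passed the filter and was called lower (edgeR adjusted p = 0.0106). Both remaining GFP-positive libraries are at 0, so no fold is given. Anxa1 entered that fit through the GFP-negative libraries alone, so this call adds no weight. The 4 other leave-out fits that tested Anxa1 gave edgeR adjusted p between 0.0719 and 0.166.

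S100b had 5.34, 9.0 and 6.28 CPM in GFP-positive cells, against 14.5, 22.0 and 23.7 CPM in GFP-negative cells. Replicate 2 was the highest GFP-positive library and replicate 1 the lowest GFP-negative one, and a gap remained between them. The log2 fold change was -1.54 (SE 0.24, edgeR adjusted p = 0.000875), 2.91-fold lower in GFP-positive cells. S100b transcripts were therefore measured in both fractions, with means of 6.87 ± 1.90 CPM in the GFP-positive fraction and 20.1 ± 4.89 CPM in the GFP-negative fraction (± SD, n = 3).

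S100a6, also called calcyclin, a protein found in fibroblasts, astrocytes and proliferating cells, had 11, 14 and 9 counts in GFP-positive libraries, against 6, 28 and 12 counts in GFP-negative ones. The groups overlapped, and the GFP-negative libraries spanned the whole range of the GFP-positive ones. Its log2 fold change of -0.76 (95% interval -2.07 to 0.55, edgeR adjusted p = 0.289) rested on the GFP-negative library of replicate 2, without which it was 0.02 (edgeR adjusted p = 0.979). A difference was not detectable at this depth, and the interval includes both equal levels and a decrease as large as that of Anxa7.

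Replicate 2 also had the highest sum of fibroblast and mural cell markers in both groups. The sum of 9 such markers was 0.409, 9.38 and 1.25 CPM in GFP-positive libraries and 2.67, 104 and 22.7 CPM in GFP-negative libraries. In replicates 2 and 3 most of it was Col3a1, a fibrillar collagen chain, with 1, 416 and 41 counts in GFP-positive and 25, 3190 and 635 counts in GFP-negative libraries, while no other gene of the list had more than 40 counts in a library. Anxa2 had the same order of replicates as this sum in both groups, Anxa6 in the GFP-positive libraries and Anxa5 in neither group. Without both replicate 2 libraries the log2 fold changes of Anxa2, Anxa5 and Anxa6 were -3.86, -3.92 and -2.48, with edgeR adjusted p of 1.50e-07, 7.31e-06 and 8.31e-07. Microglial markers summed to 0.490 to 1.14 CPM in GFP-positive and 0.576 to 2.64 CPM in GFP-negative libraries over 9 genes, with C1qa, C1qb and Tyrobp at 0 in all libraries. Endothelial markers summed to 1.39 to 2.26 CPM in GFP-positive and 2.58 to 9.85 CPM in GFP-negative libraries over 7 genes, with Cldn5 at 0 throughout. Ependymal markers summed to 4.98 to 6.66 CPM in GFP-positive and 12.4 to 19.4 CPM in GFP-negative libraries. All 3 tested ones were called lower, of which Rsph1 reached the filter's level in 0 GFP-positive libraries. Neuronal markers summed to 85.9 to 93 CPM in GFP-positive and 19.4 to 33.8 CPM in GFP-negative libraries. Tubb3 alone had means of 53.1 and 15.2 CPM, and all 4 tested neuronal markers were called higher. Slc17a6 was at 0 in all libraries, and Slc32a1 and Stmn2 were below the filter, with at most 2 and 8 counts in a library. The part of any of these lists in the annexin and S100 differences was not tested. Leaving out replicate 2 is no such test, since in replicates 1 and 3 the fibroblast and mural sum stayed lower in GFP-positive libraries.

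**Figure D2:**
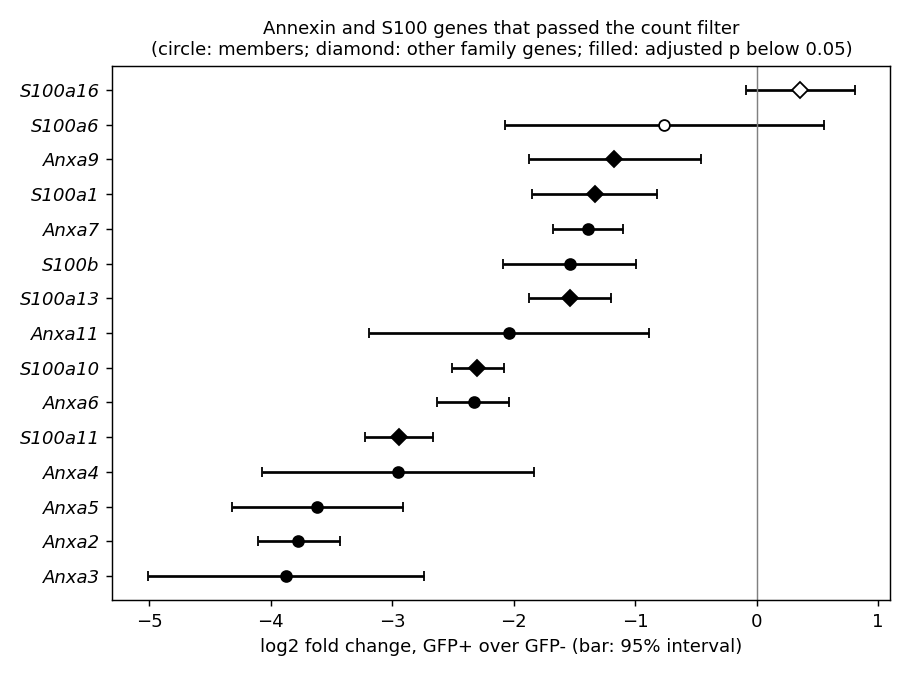
Log2 fold change, GFP-positive over GFP-negative, of the annexin and S100 genes that passed the count filter, with 95% intervals; circles are the 10 genes described, where tested, and diamonds other genes of both families, and filled symbols passed adjusted p below 0.05. The fold changes run from -3.87 for Anxa3 to 0.36 for S100a16, and only S100a6 and S100a16 are open symbols.

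Promoter windows show the start regions of genes with a large difference (Anxa2 and Anxa5), a smaller one (S100b) and none that was called (S100a6). RefSeq windows, 250 bases before to 50 after the start, were matched by symbol for 8 of the 10 genes; Anxa3 and Anxa6 were not matched. Coordinates are those of build GRCm38.p6, which is not the mm39 build of the counts. Capitals mark matches, on either strand, to the TATA box spelled TATAAA, the CCAAT box, the GC box spelled GGGCGG, the AP-1 motif TGANTCA, the TEAD motif GGAATG or the STAT motif TTCNNNGAA. Matches may overlap.
Anxa2, chr9:69453433-69453732, plus strand: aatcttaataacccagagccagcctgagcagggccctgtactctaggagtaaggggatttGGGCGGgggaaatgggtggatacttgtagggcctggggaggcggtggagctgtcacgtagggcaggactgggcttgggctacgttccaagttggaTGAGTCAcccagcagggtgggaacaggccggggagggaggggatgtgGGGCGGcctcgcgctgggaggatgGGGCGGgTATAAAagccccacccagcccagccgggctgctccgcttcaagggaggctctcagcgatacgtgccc
Anxa5, chr3:36475838-36476137, minus strand: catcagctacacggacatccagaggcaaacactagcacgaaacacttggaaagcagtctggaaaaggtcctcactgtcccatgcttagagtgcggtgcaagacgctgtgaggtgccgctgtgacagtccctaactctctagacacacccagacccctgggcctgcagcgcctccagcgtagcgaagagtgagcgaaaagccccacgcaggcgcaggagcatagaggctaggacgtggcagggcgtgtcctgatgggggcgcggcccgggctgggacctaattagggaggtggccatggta
S100b, chr10:76253586-76253885, plus strand: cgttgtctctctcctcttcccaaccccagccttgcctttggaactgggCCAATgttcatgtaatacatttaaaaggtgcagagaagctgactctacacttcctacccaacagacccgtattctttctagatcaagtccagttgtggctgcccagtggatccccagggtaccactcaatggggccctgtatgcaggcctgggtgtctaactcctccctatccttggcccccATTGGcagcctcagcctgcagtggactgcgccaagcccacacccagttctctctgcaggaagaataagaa
S100a6, chr3:90612644-90612943, plus strand: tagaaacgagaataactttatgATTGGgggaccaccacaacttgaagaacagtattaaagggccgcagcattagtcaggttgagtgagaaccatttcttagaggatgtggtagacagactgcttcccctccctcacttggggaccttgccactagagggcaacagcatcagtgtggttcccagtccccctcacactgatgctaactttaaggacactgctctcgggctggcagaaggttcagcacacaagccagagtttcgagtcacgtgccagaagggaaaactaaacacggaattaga

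The Anxa2 window held 1 TATA box, 3 GC boxes and 1 AP-1 match, a motif found in 7.81% of all 32851 windows. TATA boxes occurred in 13.6% of windows and GC boxes in 35.7%. The Anxa5 window matched none of the 6 motifs and had 16 CpG dinucleotides at 60.3% GC, beside medians of 7 and 52.7% over all windows. S100b and S100a6 had 2 and 1 CCAAT boxes, a motif in 37.4% of windows, with 3 and 6 CpG dinucleotides. TEAD and STAT matches occurred in 14.7% and 8.3% of windows. Of the 10 windows of the matched genes, the TEAD letters were in that of Anxa1 and the STAT letters in none. These are matches of letters, and no binding was measured.

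Levels were compared between genes per kilobase of annotated exon. In GFP-positive cells Anxa6 led at 5.66 ± 0.649 CPM per kilobase, followed by S100b at 4.63 ± 1.28, Anxa2 at 2.55 ± 0.50, Anxa7 at 1.40 ± 0.132 and Anxa5 at 0.814 ± 0.230 (SD, n = 3). Anxa6 and S100b overlapped within their SDs. The other 5 genes lay between 0.0389 CPM per kilobase for Anxa1 and 0.352 for S100a6. In GFP-negative cells the order was led by Anxa2 at 35.0 ± 3.01 CPM per kilobase, then Anxa6 at 28.6 ± 4.05, S100b at 13.5 ± 3.30, Anxa5 at 10.1 ± 3.38 and Anxa7 at 3.68 ± 0.216 (SD, n = 3). Within these, Anxa2 and Anxa6 overlapped, as did S100b and Anxa5. The remaining 5 ran from 0.240 CPM per kilobase for Anxa1 to 1.38 for Anxa3.

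The make-up of the annexin pool therefore differed as well as its size. Summed over the 12 annexin genes, the level was 9.56, 12.6 and 11.5 CPM per kilobase in GFP-positive libraries, against 79.8, 76.4 and 87.5 in GFP-negative libraries. Anxa6 took 51.4%, 48.2% and 51.9% of that sum in GFP-positive libraries, against 36.5%, 31.7% and 36.9% in GFP-negative libraries. Anxa2 took 22.4%, 24.6% and 20.9% in GFP-positive libraries, against 40.7%, 50.1% and 38.9% in GFP-negative libraries. For Anxa7 the share averaged 12.7% ± 2.25 in the GFP-positive and 4.53% ± 0.338 in the GFP-negative fraction (SD, n = 3). The groups did not overlap for these 3 shares, and each had p = 0.1 in a two-sided exact permutation test, the smallest value that 3 against 3 libraries allow.

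**Figure D3:**
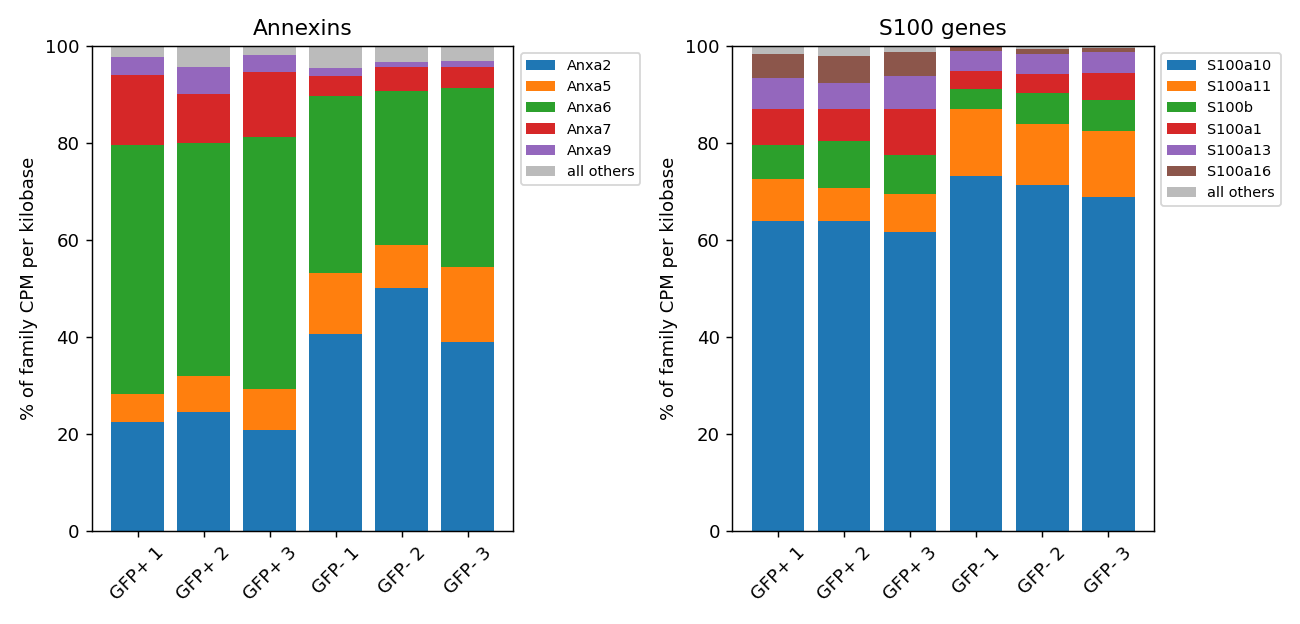
Share of each family's summed CPM per kilobase taken by its genes in each library, for 12 annexins on the left and the listed S100 genes other than S100a7l2 on the right. Anxa6 takes the largest part of the annexin sum in the GFP-positive libraries and Anxa2 in the GFP-negative ones, while S100a10 leads the S100 sum in every library.

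Other genes of both families were read from lists. Of 4 other annexins, Anxa9, an annexin that has lost calcium binding, was tested and was lower, with means of 0.938 ± 0.357 CPM in the GFP-positive fraction and 2.13 ± 0.282 CPM in the GFP-negative fraction (± SD, n = 3; log2 fold change -1.17, edgeR adjusted p = 0.0119). The call ended without both replicate 1 libraries (adjusted p = 0.112) and without both replicate 3 libraries (0.113). Anxa8, Anxa10 and Anxa13 had at most 2 counts in a library.

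Of 15 other S100 genes, 5 passed the filter, of which 4 were lower and 0 higher in GFP-positive cells, with a median log2 fold change of -1.54. Over all tested genes 29.2% were lower and 26.1% higher, with a median of -0.01. S100a10, the partner of Anxa2, was at 25.8, 32 and 26 CPM in GFP-positive cells, against 141, 133 and 138 CPM in GFP-negative cells. Its fold change was smaller than that of Anxa2, at -2.30 on the log2 scale (SE 0.09, edgeR adjusted p = 2.04e-06). The ratio of S100a10 to Anxa2, each per kilobase, was 15, 12.8 and 13.5 in GFP-positive libraries, against 5.41, 4.32 and 5.06 in GFP-negative libraries. Those ranges did not overlap (two-sided exact permutation p = 0.1, the smallest possible). S100a11, which binds the tail of Anxa1 and functions in membrane repair, had means of 2.14 ± 0.0699 CPM in the GFP-positive fraction and 16.4 ± 1.43 CPM in the GFP-negative fraction (± SD, n = 3), and a log2 fold change of -2.94 (standard error 0.12, edgeR adjusted p = 2.16e-06).

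S100 genes other than S100b lie mostly on chromosome 3 in the mouse, and neighbours there did not all give the same result. S100a1, a regulator of calcium handling in muscle, and S100a13, which takes part in export of FGF1, stand next to each other, and their promoter windows share 204 bases. Their log2 fold changes were -1.33 (SE 0.22) and -1.54 (SE 0.14), with edgeR adjusted p of 0.0013 and 6.78e-05. That stretch is promoter window, whether the transcripts of the 2 genes overlap was not examined, and the strand setting of the counting is not given. S100a16 lies beyond S100a14 from this pair. Its level was 3.54, 4.99 and 3.75 CPM in GFP-positive cells, against 2.79, 3.47 and 3.34 CPM in GFP-negative cells, narrowly separate and not called (log2 fold change 0.36, edgeR adjusted p = 0.152). S100a3, the next gene, was below the filter with 7, 11 and 2 counts in GFP-positive and 0, 1 and 1 counts in GFP-negative libraries. S100a11 and S100a10 are direct neighbours farther along the chromosome, 54 coding genes beyond the rest of the group. S100a8 and S100a9, the myeloid S100 genes, had 0 counts in all libraries.

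Proteins known to bind annexins or S100 proteins, or to act with them in membrane repair and plasminogen activation, were called lower in 12 and higher in 1 of 18 tested genes, of 23 listed (median log2 fold change -0.66). Over all tested genes 29.2% were lower and 26.1% higher, with a median of -0.01. Ahnak2 reached the filter's level in 0 GFP-positive libraries, and Ahnak, Dysf, Capn1 and Pla2g4a in 2, each with 3 GFP-negative libraries. These 5 of the 12 lower calls thus entered the test through the group in which they were high and add no weight to the count. The median of -0.66 includes these 5 genes, so it adds no weight either, and a median without them was not taken. Plat, tissue plasminogen activator, which Anxa2 with S100a10 binds at the cell surface, was at 38.4, 31.6 and 41.0 CPM in GFP-positive cells, against 283, 158 and 296 CPM in GFP-negative cells (log2 fold change -2.73, edgeR adjusted p = 4.19e-05). Dysf, the membrane repair protein dysferlin, had a value of -2.62 on the log2 scale (SE 0.33, edgeR adjusted p = 0.000293). The calpain subunits differed in size of change. Capns1 and Capn2 were at -0.73 and -0.61 on the log2 scale (edgeR adjusted p = 5.31e-05 and 5.36e-05). Capn1, named after its values were seen, had 5, 28 and 22 counts in GFP-positive libraries, against 88, 132 and 153 counts in GFP-negative libraries, and stood at -3.10 on the same scale (SE 0.47, adjusted p = 0.000794 in edgeR). Plgrkt, a plasminogen receptor, was the higher gene, at 0.31 (edgeR adjusted p = 0.0127). It lost its call without both replicate 1 libraries (adjusted p = 0.0969) and without both replicate 3 libraries (0.078).

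Fpr1, Fpr2 and Fpr3, the formyl peptide receptors that Anxa1 engages, had at most 3 counts in a library. Ager, a receptor for S100b, was tested and not called, with means of 1.25 ± 0.456 CPM in the GFP-positive fraction and 2.04 ± 0.333 CPM in the GFP-negative fraction (± SD, n = 3; edgeR adjusted p = 0.0786). Cacybp, a binding partner of S100a6, had means of 145 ± 4.09 CPM in the GFP-positive fraction and 136 ± 7.60 CPM in the GFP-negative fraction (± SD, n = 3; edgeR adjusted p = 0.173). These 5 genes were singled out for their known partners after their values were seen, as were the family genes named with few counts.

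Other calcium sensors and buffers were called in both directions. Of 19 tested genes, 8 were lower and 5 higher in GFP-positive cells, with a median log2 fold change of -0.25. Both counts stand beside 29.2% lower and 26.1% higher over all tested genes, with a median of -0.01, and the share that was higher is near that of the whole table. Calb1 among the lower genes reached the filter's level in 1 GFP-positive library, and Hpcal4 among the higher ones in 0 GFP-negative libraries. Both thus entered through the group in which they were high and add no weight to the counts, and the median includes both. Ncald, neurocalcin delta, was higher by 1.03 (edgeR adjusted p = 2.41e-05), with means of 671 ± 65.0 CPM in the GFP-positive fraction and 330 ± 11.4 CPM in the GFP-negative fraction (± SD, n = 3). Calu, a calcium-binding protein of the endoplasmic reticulum, Ncs1, a neuronal calcium sensor, and Efhd1, an EF-hand protein of mitochondria, had log2 fold changes of -0.96, -1.55 and -2.84 (edgeR adjusted p = 2.87e-05, 3.43e-05 and 7.13e-05). Without both replicate 3 libraries, 5 of the list were lower and 3 higher.

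**Figure D4:**
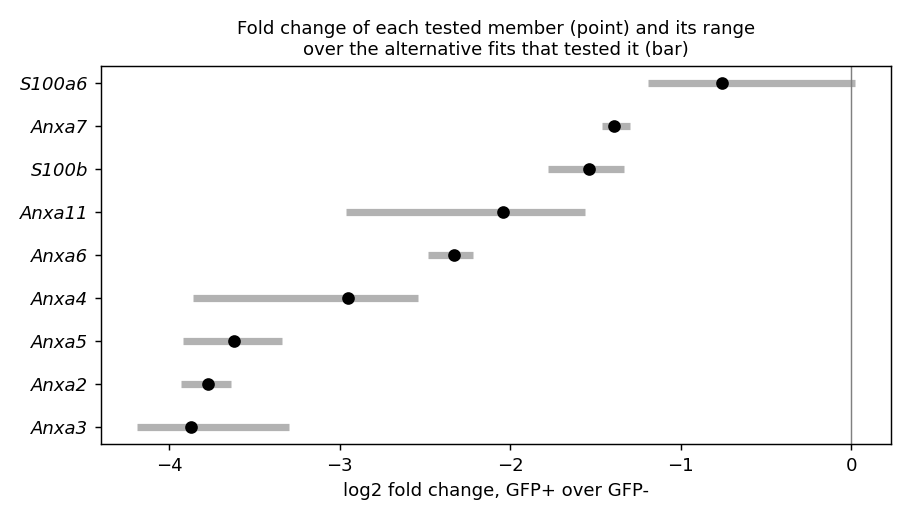
Log2 fold change, GFP-positive over GFP-negative, of the 9 tested annexin and S100 genes (points) with the lowest to highest value over the alternative fits that tested each (bars). The 8 called genes stay below 0 in every such fit, with Anxa7 between -1.46 and -1.30, while S100a6 spans -1.19 to 0.02.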

How the data were processed

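The deposited table holds raw counts of reads per gene for 6 libraries, per the file headers and the values, which are whole numbers with no normalization. Per the labels' protocols, RNA was extracted by column and libraries were made with a SMART-Seq Stranded kit. The submitters' processing notes name TopHat2 2.1.1, featureCounts 2.0.0 and mm39. The sources used here do not give the annotation, strand setting or treatment of duplicates. Libraries of one group differed beyond counting noise, with a mean squared deviation of 9.83 to 34.2 times the binomial variance over genes with 20 or more counts in a pair.

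Counts were tested with edgeR 4.0.16 in R 4.3.3 (TMM, filterByExpr, quasi-likelihood F test, two-sided, Benjamini-Hochberg over 14554 genes, threshold 0.05), GFP-positive over GFP-negative. The fit was also run on simulated data with a single dispersion for all genes and no replicate effect, so that run does not cover the spread of these libraries. The SE is the fold change over the root of F. Floors are 3 counts and cover counting error only, since PCR copies are counted. Exon lengths are the union of basic GENCODE vM21 exons, a GRCm38 annotation.

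Same-numbered libraries deviated together from their group means (correlations 0.218, 0.355 and 0.159 across genes), so the numbers may mark pairs. Differently numbered libraries gave -0.306 to 0.128. The highest of these, GFP-positive replicate 3 with GFP-negative replicate 1, was near the 0.159 of replicate 3. The main fit and the permutation tests did not use the pairing, and a fit with the replicate number as a block was an alternative. The labels name no separate animals or cultures, and p-values cover the spread between the 6 libraries, which may be technical. Genes and lists were chosen with earlier results of these data known, and the family shares and ratios after values were seen. Named genes were the 10 members, all tested genes of both families' lists, the 4 smallest p and the first opposite call in the partner and calcium sensor lists, and Pdgfra. S100a2, with 6 counts in all, was on no list. Alternatives were RLE and upper-quartile scaling, no filter, a filter at 1 CPM in 3 libraries, DESeq2 1.42.0, the replicate block, and leaving out each library or number.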

Additional observations from a re-analysis of the deposited data

How the results depend on the processing

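The 8 called annexin and S100 genes stayed lower in GFP-positive cells in each of the alternative fits that tested them, and 7 of them kept their call in all 15; Anxa11 was not tested with the filter at 1 CPM and lost its call without replicate 1 (-1.83) and without replicate 3 (-1.56). The replicate block changed no call of a named gene; with it Anxa2 was at -3.78 and S100b at -1.54. Of the 10 genes, 7 to 9 were called lower when libraries were left out. The ninth, without GFP-positive replicate 2, was Anxa1, which adds no weight because it entered through the GFP-negative libraries alone. Over the whole table, 2951 to 4468 genes were called lower and 2450 to 4169 higher when libraries were left out, of 14583 to 14828 tested. In the same fits, partner genes called higher ranged from 0 to 2, other annexins called lower from 0 to 1, and calcium sensors called higher from 3 to 6 and lower from 5 to 9. Anxa1, Anxa11 and S100a6 rest on at most 29 counts in a library, and the part of depth in their results was not tested. Family shares do not depend on scaling between libraries.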
